A study of Homo sapiens with 11 samples.

Results

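The comparison described here sets A375 persister cells, taken in the presence of the MEK inhibitor trametinib, against the untreated A375 cells they came from. It rests on 6 of the 11 RNA-seq libraries of the series: 1 parental library and 5 persister libraries, chosen by their labels alone. A375 is an established human melanoma line that carries an activating BRAF mutation, and the labels give its genotype as WT, meaning that no gene was altered for the study. Persister cells had been exposed to trametinib at 2 nM over 8 weeks. Parental cells had no drug. The other 5 libraries, made 4 weeks after the drug was removed (withdrawn cells), lend their spread to the test and serve as a second set of cultures measured against the same parental library. Nothing in the labels says that the 5 persister cultures were selected separately, so the spread between them may be technical in part. The parental group is 1 library with no spread of its own, and an exact permutation test of 1 library against 5 cannot give a two-sided p below 0.333.

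In melanoma cells with mutant BRAF, the kinase keeps MEK and ERK active without an outside signal. ERK switches on genes for growth and also genes for its own inhibitors, the Sprouty, SPRED and dual-specificity phosphatase families, whose transcripts are widely used as a readout of the pathway. Trametinib binds MEK and stops it from activating ERK. Most cells then stop dividing or die, and the few that live through prolonged exposure without a fixed resistance mutation are called persisters. In melanoma such cells are known for shifts between melanocytic, neural crest-like and undifferentiated states, for slow division and for altered metabolism.

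Values are CPM, the reads of a gene relative to all reads of its library, scaled between libraries by the trimmed mean of M values, and those of the persister cultures are given in the order 1 to 5. The persister mean follows with its SD over n = 5. A gene is called higher or lower where edgeR's quasi-likelihood test gave a Benjamini-Hochberg adjusted p of at most 0.05 over 23693 genes. In bulk samples, fewer cells of a type and less RNA per cell cannot be told apart. Library totals lay between 56513920 and 82984566 counts. MT-CO1 was the most abundant transcript in all 11 libraries. The share of counts from mitochondrially encoded genes was 2.96% for parental cells, 8.88%, 4.51%, 6.72%, 4.64% and 9.28% for persister 1 to 5, and 3.15% to 3.70% for withdrawn cells. All persister libraries lay above the parental library in this share, with persister 1 and 5 the highest. The 10 most abundant genes together held 4.21% of parental and 5.47% to 9.05% of persister counts.

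Persister cells differed from parental cells in many genes, and the cultures shared only part of the differences past 2-fold. The calls that follow draw their spread from all 11 libraries. Far fewer genes were called in the fit of the 6 parental and persister libraries, as given in the last section. Of the 23693 genes tested, 3819 were called higher (16.1%) and 3572 lower (15.1%), and in each of these genes all 5 cultures lay on the same side of the parental value, as they did in 32.7% (higher) and 30.9% (lower) of all genes tested. By levels alone, with 0.1 CPM added to each value, 1771 genes (7.47%) were at least 2-fold higher in 5 of 5 persister cultures and 1421 (6.00%) at least 2-fold lower. These were 24.8% of the 7139 genes past 2-fold higher in any culture and 22.8% of the 6221 lower, and 1664 and 1384 of them were also called. The same count for the 5 withdrawn libraries against the same parental library gave 646 (2.73%) and 194 (0.819%). Both counts rest on the same parental library, so a gene with an unusual value there can enter both. Only 201 genes (0.848%) straddled the parental level, with at least 1 persister culture 2-fold above it and at least 1 culture 2-fold below. By edgeR 0 of the 201 were called and 0 had an unadjusted p under 0.05, DESeq2 called 0 and limma-voom 1, and 25 genes (0.106%) straddled by the same count in withdrawn libraries.

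**Figure D1:**
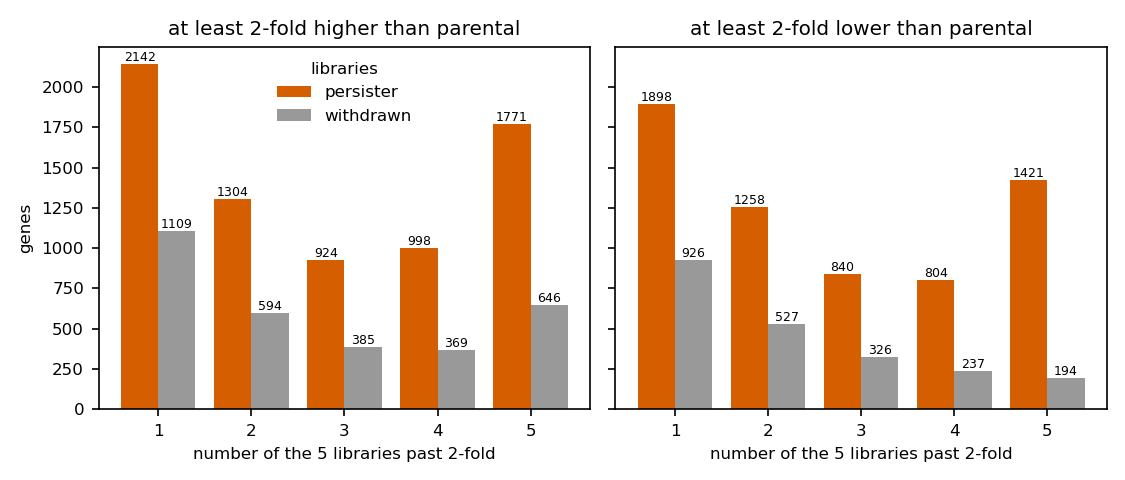
Number of genes (vertical axis) by how many of the 5 libraries of a group were at least 2-fold higher (left) or lower (right) than the parental library, for persister (orange) and withdrawn (grey) libraries. Among persister libraries the bars rise again at 5 of 5, to 1771 and 1421 genes, where withdrawn libraries reach 646 and 194.

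The cultures were not equally far from the parental cells. Persister 5 had 4921 genes at least 2-fold higher and 3986 lower than parental cells, and persister 1 had 4541 and 3953. Persister 4 had the fewest in each direction, 3402 and 2844. Withdrawn libraries had between 1397 and 1735 genes higher and between 770 and 1102 lower by the same count, below every persister culture.

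**Figure D2:**
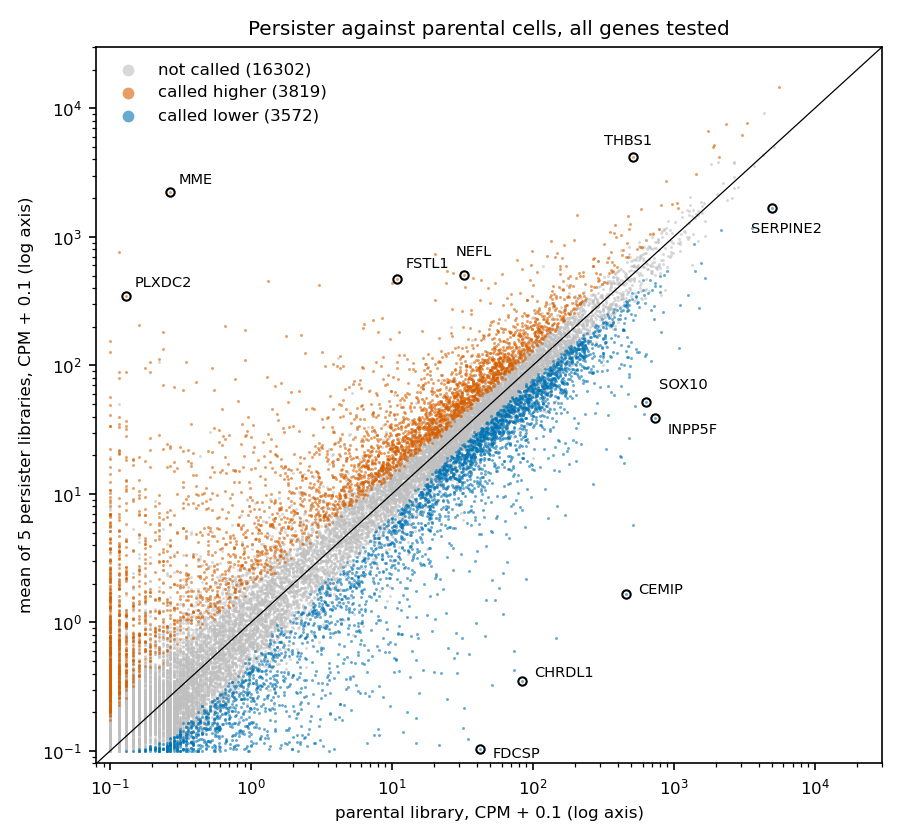
Level of each tested gene in the parental library (horizontal axis, CPM + 0.1, log scale) and its mean over the 5 persister libraries (vertical axis, CPM + 0.1, log scale). Orange points are the 3819 genes called higher, blue points the 3572 called lower, grey points the other 16302, and the diagonal marks equal levels.

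A small set of genes went from silence to clear expression. In 65 called genes, 61 of them protein-coding, the parental library had under 1 CPM and every persister culture at least 10 CPM. MME, which encodes the cell surface peptidase neprilysin (chr3:155024124-155183729 in GRCh38), stood at 0.168 CPM in parental cells and at 2278, 3225, 756, 1891 and 3020.0 CPM in the 5 persister cultures. PLXDC2, a membrane protein gene, had 2 reads in the parental library and 225, 459, 287, 282 and 486 CPM in the cultures, a ratio of 11250.0 (95% counting interval 3114 to 92900.0). BASP1, a membrane-bound protein first known from neurons, stood at 0.0612 CPM against 268, 230.1, 232, 158 and 143 CPM (log2 fold change 11.68 ± 2.51 (SE), adjusted p = 0.00577). All 3 genes were on in every culture, as the rule that chose them requires, and the gap to the parental level was far wider than the spread between cultures.

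MPP7, a scaffold of cell junctions, had 1 parental read and 76.9, 95.8, 87.1, 77.99 and 59.7 CPM in the cultures, a ratio of 5127 (95% counting interval 920.1 to 202500.0) and an adjusted p of 3.64e-04. TRPC4, a cation channel of the plasma membrane, had no parental read and 166, 53.6, 212, 229.5 and 114 CPM in the cultures. Its call (adjusted p = 0.0123) ended without a filter on low counts (0.05299) and with limma-voom (0.243). POSTN, the matrix protein periostin, had 1 parental read and 102, 75.6, 225, 3203 and 179.7 CPM, so persister 4 stood far above the rest. Its log2 fold change was 15.43 with all cultures and 13.05 without persister 4. Its call (adjusted p = 0.0473) ended without persister 3 (0.0527), without withdrawn 1, 3 or 4 (up to 0.06302), in the fit of the 6 parental and persister libraries (0.0849), without a low-count filter (0.148) and with limma-voom (0.437). Of these 6 rises, 4 were read against 0 to 2 parental reads, so their sizes are known only within wide limits.

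The opposite change, from at least 10 CPM in parental cells to under 1 CPM in every culture, was seen in 33 called genes, 29 of them protein-coding. FDCSP, a small secreted protein, stood at 41.9 CPM in parental cells and had 1 read in all 5 persister libraries together, in persister 3. The ratio of pooled levels was 14250.0 (95% counting interval 2556 to 563100.0), and the log2 fold change was -13.09, or -14.46 without persister 3. SLC24A2, which exchanges sodium for calcium and potassium, went from 21.4 CPM to 0.0154, 0, 0, 0 and 0.0410 CPM, with a log2 fold change of -10.62, or -11.90 without persister 5. ART3 went from 34.5 CPM to 0, 0.0738, 0, 0.0365 and 0.0137 CPM, with a log2 fold change of -10.41, or -11.10 without persister 2. In each of these 3 genes some cultures had no read at all.

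The other falls to silence named here, chosen by size, were in a mucin, a secreted antagonist of bone morphogenetic proteins and a modulator of WNT and FGF signals. MUC5B went from 31.7 CPM to 0, 0.111, 0.0304, 0.0122 and 0.0956 CPM (adjusted p = 7.39e-07). CHRDL1 went from 82.99 CPM to 0.0307, 0.387, 0.213, 0.499 and 0.109 CPM, 335-fold lower on average. SHISA2 went from 51.1 CPM to 0.169, 0.2398, 0.289, 0.0851 and 0.341 CPM, 227-fold lower. Withdrawn libraries had 32.8 to 40.9 CPM of SHISA2 and 84.4 to 139.7 CPM of CHRDL1, above every persister culture.

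Of the 23693 genes tested, 8366 had at least 10 CPM in all 6 libraries, of which 1685 were called higher and 1651 lower. In 301 of them every culture was at least 2-fold higher and in 224 every culture at least 2-fold lower, while in 498 every culture lay within 1.2-fold of the parental library. The largest consistent rise was that of FSTL1, a secreted glycoprotein (chr3:120392293-120451253), from 10.8 CPM to 326, 538, 526, 547 and 428 CPM, with a mean of 473 ± 94.9 CPM (SD, n = 5), 43.7-fold higher (log2 fold change 5.45 ± 0.36 (SE), adjusted p = 2.23e-06). ELL2, an elongation factor of RNA polymerase II, rose from 20 CPM to 314, 326, 331, 355 and 283 CPM, 16.1-fold. The 5 cultures were close together in this gene, with a mean of 322 ± 26.2 CPM (SD, n = 5).

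NEFL, the light neurofilament protein of axons, rose from 32.6 CPM to 575, 542, 446, 485 and 474 CPM (adjusted p = 4.94e-06). EEF1A2, the form of translation elongation factor 1 alpha used by neurons and muscle, rose from 24.02 CPM to 687, 336, 445, 374.7 and 360.0 CPM (adjusted p = 1.45e-04). Its ubiquitous counterpart EEF1A1 was the most abundant gene among those steady in all cultures, at 4326 CPM in parental cells and 5083, 3859, 4188, 4754 and 3895 CPM in the cultures (adjusted p = 0.972). ACP5 and CTSK, the acid phosphatase and cathepsin best known from bone-resorbing osteoclasts, rose from 11.1 CPM to 234, 128, 138, 94.5 and 307 CPM and from 27.1 CPM to 395, 435, 415, 223 and 1127 CPM. Persister 5 had the most of both, and its CTSK level lay far from the other 4.

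CPA4, a carboxypeptidase, rose from 19.96 CPM to 1062, 1574, 536, 243 and 254 CPM, and PCSK1, a protease that processes hormone precursors, from 24.4 CPM to 320.4, 235, 432, 349 and 1385 CPM. Cultures 1 and 2 were the highest for CPA4 and culture 5 for PCSK1, whose log2 fold change was 4.48, or 3.77 without persister 5. CPA4 (adjusted p = 0.0191) lost its call in the fit of 6 libraries (0.0612) and without a low-count filter (0.0726), and PCSK1 (adjusted p = 0.00803) in the fit of 6 libraries (0.06198).

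**Figure D3:**
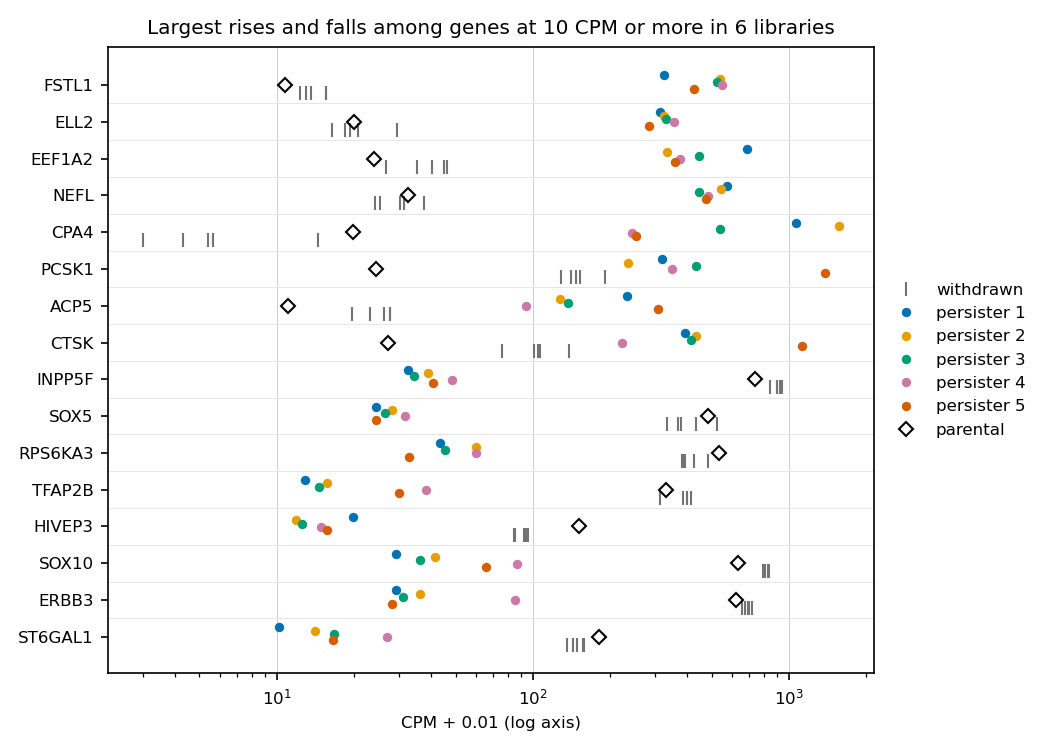
CPM + 0.01 (log axis) of the 8 largest rises and 8 largest falls among genes at 10 CPM or more in the parental and all 5 persister libraries. Diamonds are the parental library, coloured points the 5 persister cultures and grey ticks the 5 withdrawn libraries. For FSTL1, ELL2 and NEFL the persister points cluster far to the right of the diamond, while those of CPA4 and PCSK1 spread widely.

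The 8 largest falls among expressed genes were mostly in regulators of signalling and lineage. INPP5F, an inositol phosphatase (chr10:119726042-119829278), fell from 737 CPM to 32.5, 38.9, 34.3, 48.4 and 40.8 CPM, 18.9-fold lower (log2 fold change -4.24 ± 0.15 (SE), adjusted p = 7.52e-08), while withdrawn libraries had 844 to 938 CPM. RPS6KA3, the ERK-activated kinase RSK2, fell from 531 CPM to 43.3, 59.8, 45.5, 60.3 and 32.95 CPM, 10.99-fold lower. ERBB3, the receptor tyrosine kinase that binds neuregulins, fell from 619 CPM to 29.2, 36.3, 31.3, 85.1 and 28.2 CPM (adjusted p = 7.08e-05), with persister 4 above the rest. All 3 were far below the parental value in every culture, as follows from ranking by the least-changed culture.

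Transcription factors made up most of the others. SOX5 fell from 483 CPM to 24.4, 28.3, 26.6, 31.8 and 24.5 CPM, and SOX10, which specifies the melanocyte lineage, from 635 CPM to 29.2, 41.4, 36.1, 86.7 and 65.9 CPM. TFAP2B fell from 330.2 CPM to 12.9, 15.7, 14.6, 38.4 and 29.99 CPM and HIVEP3, a zinc finger factor, from 152 CPM to 19.8, 11.9, 12.6, 14.8 and 15.8 CPM. ST6GAL1, which adds sialic acid to glycoproteins, fell from 181 CPM to 10.2, 14.2, 16.7, 26.99 and 16.6 CPM (adjusted p = 1.52e-05). SOX10, TFAP2B and ST6GAL1 were highest in persister 4. In no culture did any of the 8 genes reach the parental level, which follows from ranking them by their least-changed culture.

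In absolute terms, leaving aside mitochondrially encoded genes, the largest gains in CPM among protein-coding genes called and on one side in all cultures were those of MME, THBS1, ACTB, SPARC and ACTG1. THBS1, the matrix protein thrombospondin 1, rose from 515 CPM to 4126, 3308, 4879, 6108 and 2421 CPM, and SPARC, a collagen-binding matrix protein, from 1882 CPM to 4322, 5488, 3503, 5223 and 6439 CPM. ACTB and ACTG1, the cytoplasmic actins, rose from 3054 CPM to 5798, 7297, 7457, 6751 and 3935 CPM and from 2105 CPM to 3363, 5509, 4951, 4540.0 and 2610.0 CPM. The largest losses by the same rule were those of SERPINE2, a protease inhibitor, from 4990.0 CPM to 1931, 2194, 2037, 1038 and 1221 CPM, and GNAS, the stimulatory G protein subunit, from 3596 CPM to 1074, 1029, 1168, 1154 and 1399 CPM. SLC26A2, a sulfate transporter, fell from 1511 CPM to 489, 207, 234, 269.8 and 189 CPM, with persister 1 the highest culture. TNC, tenascin C, fell from 1652 CPM to 270.4, 386, 817, 792 and 133 CPM, and HNRNPA2B1, an RNA-binding protein, from 2149 CPM to 1084, 1290.0, 1334, 1275 and 714 CPM. ACTB (adjusted p = 0.0206), SPARC (0.00378), ACTG1 (0.0378), TNC (0.0496) and HNRNPA2B1 (0.0145) lost their calls in the fit of 6 libraries, with adjusted p from 0.0559 for SPARC to 0.177 for ACTG1. The call of ACTG1 also ended on leaving out persister 3 (0.05803) or 4 (0.05804) or any 1 withdrawn library (up to 0.0598). That of TNC ended on leaving out persister 1 (0.0728) or 2 (0.0748) or any 1 withdrawn library (up to 0.0707), without a low-count filter (0.146), with the replicate block (0.0508) and with limma-voom (0.0536).

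Some genes stayed in place throughout. Beside EEF1A1, the most abundant steady genes were RPL15 and RPS3A, proteins of the ribosome, LAMC1, a laminin chain, and GANAB, a glucosidase of the endoplasmic reticulum. RPL15 stood at 1351 CPM in parental cells and 1563, 1372, 1485, 1447 and 1395 CPM in the cultures, and GANAB at 722 and 691, 625, 613, 661 and 609.6 CPM. These genes were chosen for their small differences, so their levels are a description.

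Promoter sequences are shown for 3 genes that moved, chosen after their letters were seen because they hold AP-1 and ETS motifs, whose shares are given next. They cover the 250 bases before the RefSeq start, 5′ to 3′ on the gene's strand, with coordinates in GRCh38.p14. Capitals mark any match to a searched motif on either strand: AP-1 (TGANTCA), CRE (TGACGTC), E-box (CACGTG, and TCACGTG as the E-box preceded by T), ETS (CCGGAAG), TEAD (GGAATG), the interferon-stimulated response element in its relaxed form (ISRE, GAAA repeated after 2 further bases), SOX (ACAAAG) and NRF1 (GCGCATG). CPA4 rose and its window (chr7:130292911-130293160, plus strand) has AP-1 letters starting at bases -48 and -15 and TEAD letters at -134.
CPA4: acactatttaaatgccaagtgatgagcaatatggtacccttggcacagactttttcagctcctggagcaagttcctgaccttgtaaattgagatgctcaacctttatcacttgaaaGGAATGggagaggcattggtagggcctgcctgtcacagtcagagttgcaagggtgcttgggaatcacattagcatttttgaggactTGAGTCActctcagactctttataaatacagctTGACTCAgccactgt
KDM6A, a histone demethylase gene that fell, also has AP-1 letters, at -110, beside a SOX match and an E-box (chrX:44872938-44873187, plus strand).
KDM6A: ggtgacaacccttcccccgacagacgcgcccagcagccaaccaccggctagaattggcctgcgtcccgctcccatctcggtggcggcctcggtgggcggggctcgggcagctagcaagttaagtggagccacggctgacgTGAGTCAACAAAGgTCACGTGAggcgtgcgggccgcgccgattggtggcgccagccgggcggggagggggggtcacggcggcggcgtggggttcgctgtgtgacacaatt
POLA1, the DNA polymerase alpha gene, fell and has ETS letters on both strands, at -72 and -65 (chrX:24693668-24693917, plus strand). It was at least 2-fold lower in 4 of 5 cultures, so its promoter is outside the lower set of the shares given next.
POLA1: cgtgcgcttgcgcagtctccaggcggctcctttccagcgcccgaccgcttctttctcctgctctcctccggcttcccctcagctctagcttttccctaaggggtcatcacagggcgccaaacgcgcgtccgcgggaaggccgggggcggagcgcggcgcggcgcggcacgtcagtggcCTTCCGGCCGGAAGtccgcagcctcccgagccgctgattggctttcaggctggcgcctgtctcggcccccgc

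Of the tested genes, 13944 had a RefSeq promoter entry (250 bases before to 50 after the start) and 9749 had none. AP-1 letters were in 5.64% of all these promoters, in 9.85% of the 1076 promoters of genes called and at least 2-fold higher in 5 of 5 cultures, and in 7.08% of the 791 of genes called and lower by the same rule. The ISRE letters were in 3.01%, 5.20% and 2.15%. ETS letters were in 16.4% of all promoters but in 8.09% of the higher and 5.56% of the lower set, and NRF1 letters in 6.68%, 3.35% and 3.67%. For the SOX letters the shares were 11.9%, 14.2% and 14.8%. AP-1 and ISRE letters were thus commonest in the higher set, while ETS and NRF1 letters were scarcer in both changed sets than over all promoters. The TEAD letters were in 11.4%, 12.7% and 11.5%, the CACGTG E-box in 9.49%, 8.55% and 8.09%, TCACGTG in 5.46%, 5.02% and 4.93% and the CRE letters in 5.18%, 4.83% and 3.67%. Median GC content was 64%, 62% and 64%. No test was run on these shares, and a match to the letters does not show that a factor binds.

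In some genes the cultures lay on both sides of the parental level and far apart. Among 28 straddling protein-coding genes that average at least 10 CPM, NTS, the precursor of the peptide neurotensin, had the widest spread: 0.0154, 0.369, 149.7, 0.134 and 1.48 CPM against 0.413 CPM in parental cells. Persister 3 alone held this transcript at a high level. SLC4A4, a sodium bicarbonate cotransporter, stood at 31.3, 0.295, 0.791, 4.95 and 14.2 CPM against 2.25 in parental cells, and HGF, the ligand of the MET receptor, at 3.26, 18.4, 1.26, 3.86 and 39.9 against 2.68. EDIL3, a matrix protein that binds integrins, stood at 0.338, 11.2, 16.2, 36.8 and 5.23 CPM against 7.45, and TGM2, a transglutaminase, at 8.03, 215, 54.1, 23.2 and 72.6 against 67.7. None of these 5 genes was called in the fits run.

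**Figure D4:**
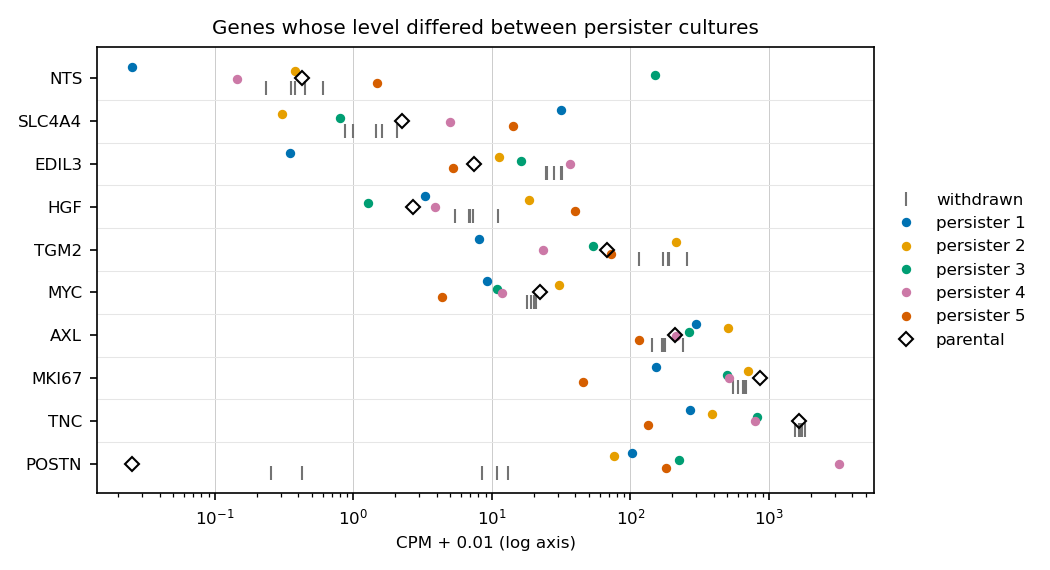
CPM + 0.01 (log axis) of 5 straddling genes with a large spread, of MYC, AXL, MKI67 and TNC, and of POSTN. Diamonds are the parental library, coloured points the 5 persister cultures and grey ticks the 5 withdrawn libraries. Persister 3 stands alone for NTS and persister 4 for POSTN, and persister 5 is the lowest culture for MYC, AXL, MKI67 and TNC.

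Genes were further grouped by role in 48 lists. Counts in a list are set against the 16.1% of all genes called higher and 15.1% called lower, and list medians of the log2 fold change against 0.09 over all genes. Over protein-coding genes alone the shares were higher, 19.8% and 18.2%, and the median was 0.07. In each list with 0 calls in a direction, mitosis apart, edgeR gave 0 members an unadjusted p under 0.05 in that direction, and limma-voom and DESeq2 called 0. Fewer members passed in the fit of the 6 parental and persister libraries: 19 lysosomal, 12 p53 target, 7 respiratory, 6 interferon-stimulated and 6 histone genes were called higher there, and 13 ERK feedback, 5 histone methylation and 1 ribosome biogenesis genes lower. Among lists with at least 4 calls in a direction, that fit cut the number higher by over 1.5 times in 24 of 34 lists and the number lower in 19 of 26. With limma-voom the number higher fell that far in 6 lists, to 15 interferon-stimulated, 10 G protein-coupled receptor, 8 cytokine, 7 axon guidance, 5 receptor tyrosine kinase and 4 fibroblast marker genes. Members given below by their range alone were chosen after their values were seen. In the list of ERK feedback genes and targets, 20 of 37 members were lower, 0 were higher and the median log2 fold change was -0.97. DUSP6, the phosphatase that inactivates ERK, stood at 168 CPM in parental cells and 21.2, 33.1, 22.1, 23.9 and 23.6 CPM in the cultures (adjusted p = 1.31e-06). SPRY2 fell from 276 CPM to 39.2, 57.8, 35.3, 41.7 and 38.1 CPM and SPRY4 from 445 CPM to 12.8, 23.96, 13.2, 8.73 and 27.2 CPM. Persister 2 was the highest culture for DUSP6 and SPRY2, and its list median of -0.62 was the nearest to 0, against -1.14 to -1.58 in the others. The ETS factors ETV4 and ETV5 fell from 142 CPM to between 8.45 and 23.2 CPM and from 141 CPM to between 38.8 and 55.3 CPM, and EGR3, an immediate-early factor, from 24.3 CPM to between 0.0152 and 0.387 CPM. MYC, a growth factor-induced transcription factor, stood at 22.3 CPM and 9.26, 30.5, 10.9, 11.7 and 4.38 CPM. Only persister 2 lay above the parental level, and the adjusted p of MYC was 0.405, or 0.0165 without persister 2.

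Upstream of ERK, 5 of 26 genes for RAS proteins, kinases and their regulators rose and 8 fell. RRAS, a relative of the RAS oncoproteins, rose from 7.22 CPM to 49.3, 47.1, 39.7, 31.4 and 48.3 CPM, and RASA2, which switches RAS off, fell from 43.1 CPM to 6.67, 10.6, 11.5, 10.9 and 9.91 CPM. The transcripts of the 2 MEK kinases moved apart: MAP2K2 rose from 86.6 CPM to between 149 and 214 CPM while MAP2K1 fell from 71.7 CPM to between 51.5 and 57.97 CPM. Among 41 receptor tyrosine kinases 9 rose and 9 fell. FGFR4, a fibroblast growth factor receptor, fell from 11.5 CPM to 0.415, 0.848, 1.03, 0.693 and 0.574 CPM beside ERBB3, and ALK and FGFR3 fell, to ranges of 0.487 to 1.34 and 0.568 to 1.42 CPM from 4.22 and 4.74 CPM. MET and DDR2 rose from 141 CPM to between 244 and 448 CPM and from 236 CPM to between 355 and 501 CPM. AXL, often high in undifferentiated melanoma cells, was at 210.3 CPM in parental cells and 299, 507, 266, 212 and 115 CPM in the cultures, on both sides of the parental level (adjusted p = 0.605).

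In the list of phosphoinositide 3-kinase and mTOR genes 6 of 30 rose and 7 fell. RICTOR, the defining subunit of mTOR complex 2, fell from 81.3 CPM to 25.6, 35.9, 25.5, 34.8 and 29.96 CPM, and SGK3 from 19.1 CPM to 6.805, 7.14, 6.89, 7.504 and 8.11 CPM. Among 45 genes of the WNT, TGF-beta, BMP and Notch pathways 13 rose and 12 fell. NOTCH3 fell from 8.001 CPM to 0.154, 0.203, 0.122, 0.304 and 0.328 CPM, 36.04-fold lower on average, and LEF1, a partner of beta-catenin, from 62.7 CPM to 9.201, 11.6, 12.4, 14.8 and 9.16 CPM. NOTCH1, NOTCH2 and the Notch ligand JAG1 were lower too, with 130.1 to 227 CPM of NOTCH2 in the cultures against 382 in parental cells. The BMP-induced genes ID1, ID2 and ID3 were higher, ID3 at 167 to 476 CPM against 31.4, and TGFB2 was at 20.2 to 88.03 CPM against 1.42.

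Of the melanocyte lineage and pigment genes 9 of 29 rose and 8 fell. SOX10, LEF1, ERBB3 and TFAP2B fell as given above, and S100B, a marker of melanocytes and Schwann cells, fell from 71.7 CPM to between 6.88 and 24.5 CPM. DCT, an enzyme of melanin synthesis, rose from 2.94 CPM to between 229 and 740.4 CPM and GPNMB, a melanosome and lysosome glycoprotein, from 205 CPM to between 940.3 and 2196 CPM. MLANA, a melanosome protein, rose from 1.15 CPM to 11.03, 12.9, 13.3, 23.5 and 19.4 CPM. MITF, the master factor of the lineage, stood at 78.4 CPM and 113, 89.7, 96.04, 119 and 93.5 CPM, above the parental value in all cultures but not called (adjusted p = 0.219). Tyrosinase was below the count filter and was not tested. Lineage factors and pigment genes thus did not move as a block.

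Among 29 neural crest and stem-like genes 9 rose and 10 fell. SOX11, an embryonic neural factor, fell from 145 CPM to 0.107, 1.42, 0.259, 0.669 and 0.847 CPM, 219-fold lower on average. SOX9, which acts in neural crest derivatives and cartilage, was on instead, at 112 to 161 CPM against 0.138 CPM in parental cells, and SOX4 was at 68.2 to 221 against 34.05. In the undifferentiated AXL-high list 13 of 33 rose and 1 fell, and the median log2 fold change was 0.99. LOXL2, a lysyl oxidase, rose from 90.1 CPM to 368, 377, 309, 300.0 and 244 CPM and FOSL2, an AP-1 subunit, from 14.1 CPM to 83.9, 133, 104, 142 and 61.4 CPM. Persister 5 had the lowest median of this list, 0.26 against 0.78 to 1.60, and without persister 2 the number that fell went from 1 to 6. Of 51 transcription factors of other lineages 15 rose and 12 fell. NR4A1, an immediate-early nuclear receptor, fell from 65.7 CPM to 2.44, 1.72, 1.99, 3.15 and 4.93 CPM and EBF3 from 80.2 CPM to 20.3, 26.2, 23.3, 23.4 and 22.9 CPM. FOXF1 and GATA3 rose from 2.66 CPM to between 20.3 and 39.7 CPM and from 2.28 CPM to between 10.6 and 25.9 CPM.

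Genes of the extracellular matrix changed in both directions. Among 28 collagen genes 8 rose and 5 fell, with a median log2 fold change of 0.13, and without persister 3 or withdrawn 1, 4 or 5 the number that fell was 3. COL9A3, a minor cartilage collagen chain, fell from 178 CPM to 23.6, 24.7, 14.2, 31.2 and 20.3 CPM and COL6A3 from 7.63 CPM to 0.707, 0.959, 1.57, 0.535 and 0.642 CPM. COL5A1 and COL12A1 rose from 32.7 CPM to between 213 and 567 CPM and from 53.8 CPM to between 266 and 549 CPM. Of 42 matrix glycoproteins and proteoglycans 16 rose and 7 fell. TGFBI rose from 166 CPM to 552, 807, 1278, 844 and 877 CPM, AGRN from 97.6 CPM to 239, 182, 213, 192 and 189 CPM and MGP, an inhibitor of calcification, from 8.37 CPM to between 141 and 468 CPM. CSPG4, the melanoma surface proteoglycan, fell from 544 CPM to between 49.8 and 185 CPM.

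Among 48 matrix enzymes and inhibitors 18 rose and 9 fell. MMP2, a gelatinase, and its inhibitor TIMP2 rose together, from 98.95 CPM to between 615 and 1044 CPM and from 143 CPM to between 591 and 920.2 CPM. The collagenase MMP1 went from 0.765 CPM to between 24.1 and 59.6 CPM. CEMIP, which breaks down hyaluronan, fell from 457 CPM to 0.261, 3.69, 1.37, 1.17 and 1.34 CPM, and LOXL4 from 694 CPM to 124, 141, 95.3, 78.4 and 96.3 CPM while its relative LOXL2 rose. Of 21 integrins, the cell's receptors for matrix, 8 fell and 2 rose, though the median log2 fold change was 0.33, on the other side of 0 from most calls. ITGA9 fell from 73.3 CPM to 0.107, 0.184, 0.259, 0.791 and 0.273 CPM, with a log2 fold change of -7.76, or -8.45 without persister 4, and ITGB8 from 202 CPM to 35.6, 22.3, 16.7, 32.4 and 19.5 CPM. ITGB3, which pairs with the alpha V chain, fell from 219 CPM to between 12.6 and 36.9 CPM. The number of integrins that rose went from 2 to 5 without persister 2 and to 4 without persister 4 or 5. Of 34 contractile and cytoskeletal genes 12 rose and 2 fell: ZYX, a focal adhesion protein, rose from 75.02 CPM to 235, 232, 261, 242 and 166 CPM, and MYH10, a non-muscle myosin, fell from 446 CPM to 199.8, 182, 172, 220.3 and 172 CPM. TPM1 and TPM2, tropomyosins of actin filaments, rose from 42.1 CPM to between 146 and 464 CPM and from 149 CPM to between 539.7 and 1082 CPM. The median of this list was 1.37 in persister 4 and 0.13 in persister 5, the ends of the range.

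Several receptors and channels that had been near silent in parental cells were expressed in persister cells. Of 45 G protein-coupled receptors 18 rose and 7 fell, with a median log2 fold change of 0.78. PTGFR, the prostaglandin F receptor, had 1 parental read and 5.22, 7.71, 9.33, 7.09 and 10.5 CPM in the cultures, a ratio of 523 (95% counting interval 93.8 to 20660.0). S1PR2, a receptor of sphingosine-1-phosphate, fell from 25.1 CPM to 6.73, 6.22, 4.52, 6.25 and 7.402 CPM while S1PR1 and S1PR3 rose from 0.184 CPM to between 7.103 and 38.8 CPM and from 2.95 CPM to between 10.7 and 30.8 CPM. Among receptors of lysophosphatidic acid, LPAR1 rose from 2.68 CPM to between 18.2 and 125 CPM and LPAR3 fell from 29.9 CPM to between 3.82 and 20.1 CPM. Members of both lipid receptor families thus moved in opposite directions.

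Among 52 ion channels 16 rose and 9 fell. ANO1, a calcium-activated chloride channel, fell from 32.6 CPM to 0.0154, 0.129, 0.167, 0.195 and 0.0819 CPM, and its relative ANO4 from 24.97 CPM to 0.246, 0.295, 0.487, 0.912 and 0.697 CPM. PIEZO2, a channel opened by mechanical force, rose from 0.841 CPM to between 19.4 and 46.4 CPM, and KCNK1, a potassium leak channel, from 1.32 CPM to between 28.0 and 57.6 CPM. Of 41 genes of axon guidance and neuronal adhesion 12 rose and 8 fell. NTN4, a netrin, rose from 10.4 CPM to 61.8, 54.3, 71.8, 53.9 and 70.4 CPM, and NRXN3, a synaptic adhesion protein, fell from 3.53 CPM to 0.0461, 0.129, 0.0304, 0.158 and 0.109 CPM. L1CAM, a neuronal adhesion molecule, rose from 42.7 CPM to between 345 and 746 CPM, and SEMA5A, a semaphorin, from 0.138 CPM to between 89.97 and 324 CPM. The median log2 fold change of this list was 0.39.

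In the proliferation lists the 5 cultures differed widely. Of 43 mitosis genes edgeR called 0 in either direction (2 were lower at an unadjusted p under 0.05, DESeq2 called 1 lower and limma-voom 0), and 2 of 41 replication genes fell and 0 rose. The median log2 difference of the mitosis list from parental cells was -1.92 in persister 1 and -3.25 in persister 5, but 0.00, -0.16 and -0.31 in persister 2, 3 and 4. MKI67, the proliferation antigen Ki-67, stood at 865 CPM in parental cells and 154, 707, 496, 518 and 45.4 CPM in the cultures, lowest in persister 5 and 1 (adjusted p = 0.322). POLA1 and POLE, catalytic subunits of DNA polymerases, fell from 116 CPM to 33.4, 42.5, 49.95, 58.9 and 20.9 CPM and from 105 CPM to 31.9, 53.2, 44.8, 48.99 and 19.9 CPM. Without persister 2, 8 replication genes fell, and without persister 5, 10 did. The calls of POLA1 and POLE ended in the fit of 6 libraries (adjusted p = 0.06904 and 0.0818). Of 25 regulators of the G1 phase 2 rose and 6 fell, or 11 without persister 2. CDKN1A, the cyclin-dependent kinase inhibitor p21, stood at 60.6 CPM against 635, 520.1, 495, 428 and 480.4 CPM, high in all 5 cultures whatever their mitosis level. CDKN1C, the related inhibitor p57, fell from 7.14 CPM to 0.0154, 0.0738, 0.122, 0.195 and 0.5599 CPM, with a log2 fold change of -5.16, or -6.06 without persister 5.

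The summed level of replication-dependent histone transcripts was higher in every culture than in parental cells. These mRNAs normally end in a stem-loop without a poly(A) tail and are made in S phase, and polyadenylated forms are known from differentiated cells. Of 18 measured members 12 were higher and 2 lower, with a median log2 fold change of 2.56, and the summed level of the list was 43.1 CPM in parental cells, 207 to 610.3 CPM in the cultures and 37.8 to 44.3 CPM in withdrawn libraries. HIST1H2AC stood at 2.63 CPM in parental cells and 37.9, 33.5, 36.9, 39.9 and 84.4 CPM in the cultures, and HIST1H2BK at 4.19 CPM and 18.4, 28.5, 26.2, 23.9 and 34.2 CPM. The 2 that fell were HIST1H4C, from 2.95 CPM to between 0.396 and 1.23 CPM, and HIST1H1B, from 0.597 CPM to between 0 and 0.167 CPM. In persister 1 to 5 the sums were 273.3, 207, 316.6, 281.1 and 610.3 CPM. The libraries were made with an mRNA kit, which captures poly(A) tails, and its part in these values was not tested.

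In the DNA repair list 1 of 40 rose and 8 fell. PARP1 fell from 556 CPM to 294, 279, 355, 382 and 250.1 CPM and PRKDC, the catalytic subunit of DNA-dependent protein kinase, from 1548 CPM to 535, 804, 593, 836 and 358 CPM. Both calls ended in the fit of 6 libraries (adjusted p = 0.0769 and 0.0742). The p53 target list rose in 17 of 30 members, with 0 lower and a median log2 fold change of 0.96. Beside CDKN1A, SESN2, a stress-induced inhibitor of mTOR complex 1, rose from 10.6 CPM to 28.9, 28.2, 26.6, 26.3 and 34.03 CPM, and FDXR, a mitochondrial reductase, from 7.83 CPM to between 25.4 and 61.7 CPM. Of 21 BCL2 family genes 8 rose and 3 fell. BBC3, the death-promoting protein PUMA, rose from 2.68 CPM to 15.4, 9.997, 9.97, 10.6 and 12.8 CPM, and BCL2, which blocks death, fell from 13.4 CPM to 3.96, 5.85, 4.44, 5.27 and 3.85 CPM. BCL2L1, which encodes BCL-XL, rose from 28.6 CPM to between 59.0 and 109 CPM and MCL1 fell from 614 CPM to between 289.8 and 383 CPM. BCL2L11, the ERK-restrained killer BIM, stood at 11.9 CPM against 9.32, 7.95, 7.55, 11.99 and 10.9 CPM (adjusted p = 0.311). Protective members thus moved in both directions, while BAX, BAK1, BAD, BMF and HRK, which promote death, were higher beside BBC3.

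Antigen presentation split by class. Of 22 genes of MHC class I and its peptide supply 20 rose and 0 fell, with a median log2 fold change of 1.16, and of 13 class II genes 11 fell and 0 rose, with a median of -1.66. In the fit of 6 libraries the 2 classes together had 11 genes higher and 2 lower. PSMB8 and PSMB9, subunits of the immunoproteasome, rose from 26.8 CPM to 87.2, 103, 91.97, 68.3 and 90.1 CPM and from 6.99 CPM to 29.1, 35.1, 25.5, 20.1 and 25.3 CPM. B2M, the light chain of the class I molecule, rose from 472 CPM to between 1199 and 2002 CPM. CIITA, the activator of class II genes, fell from 102 CPM to between 6.56 and 25.4 CPM, HLA-DRA from 535 CPM to between 42.7 and 223 CPM and the invariant chain CD74 from 1403 CPM to between 268 and 795 CPM. HLA genes are closely similar to each other and their reads may have been split.

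Of 47 interferon-stimulated genes 26 rose and 1 fell, with a median log2 fold change of 1.76. TRIM22 rose from 0.5201 CPM to 42.2, 55.4, 37.5, 26.2 and 67.6 CPM and IFITM2 from 20.7 CPM to 100.1, 75.2, 83.2, 95.2 and 124 CPM, though IFITM2 is nearly identical to IFITM3 and their reads may have been split. Persister 2 and 5 had the highest list medians, 2.11 and 2.07, and the other cultures lay between 0.96 and 1.45. In the complement list 13 of 28 rose and 1 fell, with a median of 1.96. CLU, clusterin, rose from 3.56 CPM to 38.1, 47.7, 73.01, 52.3 and 75.4 CPM and CD59, which shields cells from complement, from 212 CPM to 554, 571, 456, 437 and 616 CPM. C3, the central complement protein, rose from 7.22 CPM to between 136 and 408 CPM. Of 33 cytokines and chemokines 13 rose and 4 fell: IL1A fell from 2.998 CPM to 0.0461, 0, 0.0152, 0.0486 and 0 CPM and CX3CL1 from 1.68 CPM to 0.0307, 0.0738, 0.0761, 0.0243 and 0.0273 CPM, while CSF1 rose from 11.1 CPM to between 65.9 and 156 CPM and CCL2 from 0.4896 CPM to between 14.5 and 39.4 CPM.

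Lysosomal genes rose widely. Of 54 members 38 were higher (70.4%, against 16.1% of all genes) and 2 lower, with a median log2 fold change of 1.17. SMPD1, acid sphingomyelinase, rose from 17.1 CPM to 109.7, 71.6, 87.9, 87.0 and 154 CPM and LAMP2, a membrane protein of the lysosome, from 141 CPM to 360.4, 296, 338, 357 and 437 CPM. CTSA and PSAP rose from 97.5 CPM to between 366 and 999 CPM and from 582 CPM to between 1359 and 2191 CPM. The 2 that fell were CTSC and LAPTM5. Of 35 autophagy genes 9 rose and 3 fell. GABARAPL1, which coats autophagosomes, rose from 27.8 CPM to 154, 105, 127, 124 and 167 CPM and OPTN, a cargo receptor, from 22.2 CPM to 82.3, 66.8, 65.4, 57.4 and 94.9 CPM.

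Nuclear genes of the respiratory complexes rose in 35 of 52 cases and fell in 1, by small amounts: the median was 0.79 and only 3 were at least 2-fold higher in every culture. UQCRB rose from 122 CPM to 355, 258, 259.6, 241 and 335 CPM and COX7C from 163 CPM to 473, 336, 354, 328 and 463 CPM. Both were highest in persister 1 and 5, the cultures with the largest mitochondrial share. PPARGC1A, the coactivator PGC-1 alpha that drives mitochondrial gene expression, stood at 0.275 CPM in parental cells and 62.04, 19.4, 18.2, 30.9 and 44.8 CPM in the cultures (adjusted p = 0.00114). Of 43 genes of the TCA cycle and fatty acid oxidation 12 rose and 8 fell. SLC25A20, the mitochondrial carnitine carrier, rose from 18.5 CPM to 47.4, 42.8, 39.4, 39.1 and 48.4 CPM, and ACOX2, a peroxisomal oxidase, fell from 10.7 CPM to 0.968, 1.22, 1.69, 0.778 and 1.38 CPM. Among 28 glycolysis genes 2 rose, or 4 without persister 1, and 6 fell. PFKFB3 and PFKFB4, which make the activator of phosphofructokinase, fell from 165 CPM to 53.4, 61.5, 61.9, 63.8 and 73.4 CPM and from 88.2 CPM to 27.2, 25.9, 23.1, 24.6 and 29.4 CPM.

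In cholesterol and fatty acid synthesis 2 of 33 genes rose and 11 fell. FASN, fatty acid synthase, fell from 718 CPM to 179, 301, 193, 246 and 225 CPM, and STARD4, a cholesterol carrier, from 43.9 CPM to 12.4, 12.9, 12.6, 13.2 and 15.8 CPM. Of 41 genes of iron, glutathione and ferroptosis 15 rose and 2 fell. HMOX1, which frees iron from heme, rose from 6.24 CPM to 258, 283, 202, 118 and 194 CPM, 33.8-fold on average, and STEAP3, a ferric reductase, from 7.11 CPM to 34.4, 30.9, 30.3, 33.96 and 25.1 CPM. FTH1, the ferritin heavy chain, rose from 135 CPM to between 646 and 1767 CPM and GPX4, which removes lipid peroxides, from 68.3 CPM to between 137 and 251 CPM.

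Of 41 ribosome biogenesis genes 11 fell and 0 rose. POLR1B, a subunit of RNA polymerase I, fell from 157 CPM to 66.7, 73.9, 58.5, 77.3 and 51.2 CPM and WDR12 from 81.05 CPM to 49.3, 52.3, 46.4, 52.7 and 38.8 CPM. The number that fell was 7 without persister 3 and 4, 4, 5, 6 and 4 without withdrawn 1 to 5, and WDR12 lost its call in the fit of 6 libraries (adjusted p = 0.0583). Of 32 proteasome genes 4 rose, or 7 without persister 5, and 0 fell. PSMB5 and PSMB3 rose from 109 CPM to 159, 156, 166, 146 and 148 CPM and from 141 CPM to 287, 234, 235, 194 and 196 CPM, calls that ended in the fit of 6 libraries (adjusted p = 0.1203 and 0.125). Of 35 unfolded protein and heat shock genes 5 rose and 1 fell, or 4 without persister 2. HSPB8, a small heat shock protein, rose from 3.702 CPM to 107, 66.5, 108, 112 and 122 CPM, and EDEM1, which sends misfolded glycoproteins to degradation, fell from 224 CPM to 103, 105, 116, 123 and 134 CPM. In the list of amino acid transport and tRNA charging 4 of 35 rose, or 8 without persister 5, and 3 fell, with ATF5, a stress-response factor, up from 9.56 CPM to 40.2, 31.9, 40.7, 31.4 and 25.8 CPM.

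Enzymes that write and erase histone methylation fell more often than they rose. The median exon length of this list was 9222 bases, and genes with long exons fell more often in general, as given below. Of 38 genes 20 fell and 1 rose, with a median log2 fold change of -0.61: 11 of 16 demethylases and 9 of 22 methyltransferases and their partners were lower. DOT1L, which methylates lysine 79 of histone H3, fell from 66.1 CPM to 17.9, 24.6, 18.5, 21.4 and 15.8 CPM, and KDM6A, which removes methyl groups from lysine 27, from 41.4 CPM to 10.4, 13.3, 9.997, 14.8 and 12.3 CPM. KDM5B, a lysine 4 demethylase known from slow-cycling melanoma cells, fell from 273 CPM to 174, 116, 168, 194 and 200.5 CPM (adjusted p = 0.02996), a call that ended in the fit of 6 libraries (0.146). The 1 that rose was PRDM1, from 0.168 CPM to between 18.8 and 30.3 CPM. Of 33 Mediator subunits 6 rose and 9 fell. MED12L fell from 8.41 CPM to 1.66, 1.59, 2.01, 1.78 and 1.76 CPM and MED14, a scaffold subunit, from 149 CPM to 54.7, 63.6, 53.03, 65.9 and 46.8 CPM. Of 24 markers of drug tolerance 12 rose and 4 fell, among them IGFBP7, which binds insulin-like growth factors, from 4.15 CPM to 117, 112, 138, 91.7 and 131 CPM. NRG1, the neuregulin ligand of ERBB3, rose from 0.551 CPM to between 145 and 259 CPM while ERBB3 fell, and CD36, a fatty acid transporter, rose from 0.444 CPM to between 17.8 and 39.02 CPM.

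**Figure D5:**
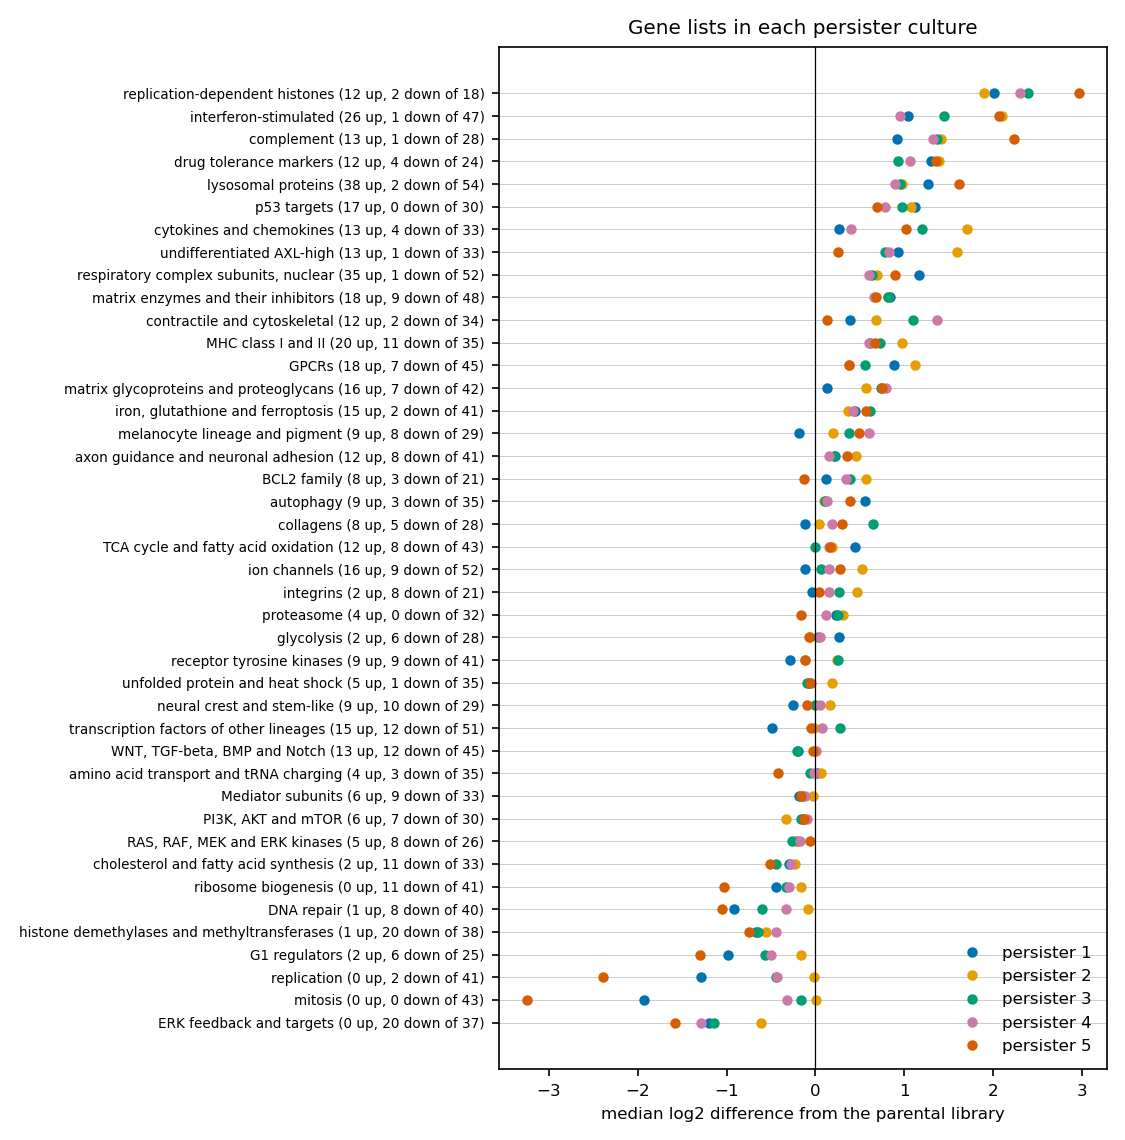
Median log2 difference of each gene list from the parental library (horizontal axis) in each of the 5 persister cultures (coloured points), with the numbers of members called higher and lower beside the list's name. The 5 points stay on one side of 0 for histones, lysosomal, interferon-stimulated and ERK feedback genes, and those of the mitosis and replication lists spread from about the parental level to far below it.

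Exon length moved with the direction of change. It was taken as the merged length of all annotated exons of a gene, which is not the length of a transcript. Among 9168 protein-coding genes at 10 CPM or more in parental cells, split into 4 equal sets by exon length, 28.96% of the shortest set were called higher and 8.72% lower, against 10.6% and 39.05% of the longest. Spearman's correlation across these genes between exon length and the log2 difference from parental cells was -0.335 to -0.209 in persister and -0.250 to -0.135 in withdrawn libraries, all set against the same parental library, and genes are not independent replicates. The median exon length was 9222 bases for the list of histone methylation enzymes, 2774 for the respiratory subunits and 852 for the histones. The part of length in these lists was not tested.

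By class, 3041 of 15369 protein-coding genes rose and 2798 fell. Of 4734 long non-coding genes 556 rose and 431 fell. All 13 calls among 23 mitochondrially encoded genes were higher. The largest consistent rises among expressed long non-coding genes were those of LINC00963, from 45.2 CPM to 156, 118, 165, 147 and 260.4 CPM, AC016747.1, from 12.04 CPM to 24.3, 31.5, 25.5, 23.7 and 23.5 CPM, and NOP14-AS1, from 14.5 CPM to 31.3, 25.99, 24.8, 21.9 and 30.2 CPM. The snoRNA host genes SNHG3 and SNHG1 fell from 85.9 CPM to 33.4, 25.6, 46.4, 41.3 and 20.7 CPM and from 108 CPM to 48.6, 71.3, 44.2, 53.4 and 25.3 CPM, and MIR100HG from 57.6 CPM to 39.8, 31.8, 28.03, 20.8 and 43.4 CPM. NOP14-AS1 lies opposite NOP14, and the strand setting of the counting is not given in the sources used here, so its reads may include those of its neighbour. NOP14-AS1, SNHG3, SNHG1 and MIR100HG lost their calls in the fit of 6 libraries (adjusted p from 0.0601 to 0.161). MIR100HG (adjusted p = 0.0391) also lost its call without persister 2 (0.0512) or 3 (0.0654) and without withdrawn 2, 4 or 5 (up to 0.0551).

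Markers of other cell types were checked in the same libraries. Sums cover only markers that passed the count filter. Of 9 leukocyte markers 3 were measured, and these summed to 7.01 CPM in parental cells and 0.369 to 0.776 CPM in the cultures. LYZ, lysozyme, made up most of the parental sum and fell from 6.79 CPM to 0.138, 0.148, 0.350, 0.0851 and 0.123 CPM, PTPRC, the pan-leukocyte marker CD45, was called higher at 0.0153 and 0.138, 0.184, 0.259, 0.474 and 0.423 CPM, and 6 of the 9, the T and B cell markers among them, were below the count filter. Of 10 endothelial markers 8 were measured, of which 2 rose and 2 fell, and the 8 summed to 22.4 CPM and 9.45 to 24.3 CPM. The 2 that fell were PECAM1, at 1.25 and 0.0461, 0.166, 0.243, 0.0730 and 0.0137 CPM, and VWF, at 0.5201 and 0.0461, 0.129, 0.167, 0.0973 and 0.205 CPM. Of 13 keratinocyte markers 7 were measured, of which 3 rose and 1 fell, with a median log2 fold change of 3.03. The 7 summed to 40.5 CPM and 49.5 to 65.1 CPM, nearly all of it KRT10, at 34.9 and 58.2, 47.4, 59.02, 53.2 and 54.6 CPM. KRT14 fell from 5.37 CPM to 0.922, 0.0369, 0.517, 0.243 and 0.218 CPM, with a log2 fold change of -3.78, or -4.37 without persister 1. Of 11 fibroblast markers 7 rose and 2 fell, and their sum was 307 CPM in parental cells and 110.4 to 532 CPM in the cultures. FAP and LUM rose from 0.903 CPM to 28.3, 32.7, 16.1, 17.4 and 42.7 CPM and from 2.16 CPM to 32.7, 136, 292, 122 and 278 CPM, while PRRX1, the most abundant of the list in parental cells, fell from 285 CPM to between 18.1 and 142 CPM. Of 9 Schwann cell markers 2 rose and 3 fell, among the latter CDH19, from 85.5 CPM to 14.9, 16.3, 11.7, 30.5 and 21.4 CPM, and ERBB3. The calls of PTPRC, PECAM1, VWF and KRT10 ended in the fit of 6 libraries (adjusted p from 0.05196 to 0.117).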

How the data were processed

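Messenger RNA of 11 A375 cultures was sequenced. The labels' protocols name the RNeasy Plus Mini Kit for extraction and the KAPA Stranded mRNA-Seq Kit for the libraries. Per the submitters' processing notes, bcl2fastq, HISAT2 and HTSeq were used with hg38. The strand setting, tool versions and annotation release were not given in the sources used here. Deposited values are raw read counts per gene for 58721 genes, and all identifiers matched GENCODE 29, from which names, classes and coordinates were taken. Exons of 57 of the 147 named genes overlap a gene on the other strand.

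Groups came from the labels. Library totals were 56513920 to 82984566 counts, and counting intervals (95%) and the floor of 3 counts cover counting error only. From the counts, CPM were computed with TMM scaling and genes were filtered with filterByExpr (minimum count 10). Persister was tested against parental with edgeR 4.0.16 (R 4.3.3, quasi-likelihood F test, Benjamini-Hochberg) in a fit of all 3 groups. The spread thus comes from the persister and withdrawn libraries, with 8 residual degrees of freedom. It is pooled over both groups, whose spreads differed. For MKI67 the SD was 275 CPM in persister and 53.7 CPM in withdrawn libraries, and for MITF 12.9 and 24.15 CPM. The fit of the 6 parental and persister libraries uses the spread of the persister libraries alone, and far fewer genes were called there. That fit also has fewer samples, so the part of the pooling in this shift was not tested. Alternatives were limma-voom (limma 3.58.1), DESeq2 1.42.0, a fit of the 6 parental and persister libraries, other filters, a replicate block and leaving out each library. The titles tie each withdrawn culture to the persister culture that shares its number, the parental library has no number, and the block is an alternative.

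Genes with full values were named by rule: the largest consistent rises and falls among switching, expressed and long non-coding genes, the largest gains and losses in CPM, the widest straddling genes, the most abundant steady genes, the 2 called members of each list with the smallest adjusted p, and 12 genes of interest. Members and lists were chosen with earlier results of these data known. A few genes that these rules or lists take in are not reported here.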

Additional observations from a re-analysis of the deposited data

Results flagged for a closer look

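Of 147 named genes, 16 had 1 persister culture that stood apart. Its gap to the nearest other culture was large for the range of the 5 (Dixon's 95% critical value, 0.71). Chance alone does this in about 1 of 20 groups of normally distributed values. That rate does not cover genes chosen by their values over these cultures, as most of the named genes were. Straddling genes such as NTS were chosen for their spread itself. Persister 2 stood apart in 5 genes: DUSP6 was 33.1 CPM there against 21.2 to 23.9 CPM in the others, SPRY2 57.8 against 35.3 to 41.7, MYC 30.5 against 4.38 to 11.7 and AC016747.1 31.5 against 23.5 to 25.5, while HSPB8 was lower, 66.5 against 107 to 122 CPM. SPRY4, another ERK feedback gene, was highest in persister 5.

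Persister 5 stood apart in 4 genes. PCSK1 was 1385 CPM there against 235 to 432, CTSK 1127 against 223 to 435, HIST1H2AC 84.4 against 33.5 to 39.9 and STARD4 15.8 against 12.4 to 13.2 CPM. Persister 4 stood apart in POSTN, with 3203 CPM against 75.6 to 225, in ERBB3, with 85.1 against 28.2 to 36.3, and in ITGA9, with 0.791 against 0.108 to 0.273 CPM.

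Persister 3 stood apart in NTS, with 149.7 CPM against 0.0154 to 1.48, and in LYZ, with 0.350 against 0.0851 to 0.148 CPM. FDCSP had its single persister read there, 0.0152 CPM against 0 in the others. Persister 1 stood apart in SLC26A2, with 489 CPM against 189 to 269.8.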

How the results depend on the processing

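No result reversed under any alternative. In the fit of the 6 parental and persister libraries 1354 genes were called higher and 1215 lower, of which 1348 and 1215 were called in the fit of all 11. The limits are the single parental library, whose own error is taken from the other groups, and counts of under 10 reads, where sizes are loosely known. With the replicate block 3354 were higher and 3424 lower, with 3203 and 3228 shared. Deviations of same-numbered persister and withdrawn samples correlated at 0.0484 to 0.0909, low values, though each was highest for its own number. The main fit did not use the pairing. Other settings gave 3059 and 3915 (limma-voom), 4654 and 3843 (DESeq2), 3057 and 3153 (no low-count filter) and 3835 and 3503 (at least 10 counts in 5 libraries), and leaving out 1 library gave 3326 to 4614 and 3148 to 4235. Genes past the fold in 5 of 5 cultures numbered 3238 higher, 2897 lower and 979 straddling at 1.5-fold, 652, 396 and 7 at 4-fold, and 943, 743 and 37 with 1 CPM added. With 1 culture left out these counts were 1843 to 2210, 1519 to 1688 and 122 to 174. The mean mitochondrial share of the cultures, 6.81%, was 6.19% to 7.38%, that of the 10 most abundant genes, 7.21%, was 6.75% to 7.65%, and that of the top 100, 21.4%, was 20.7% to 22.1%. Of 147 named genes, 24 lost their call in the fit of 6 libraries, 5 without a filter, 4 with limma-voom and 2 with the block (TNC and PTPRC). DESeq2 gave an adjusted p for 145, POSTN not among them, and 0 of these lost a call. Adjusted p over these alternatives spanned 0.0204 to 0.437 for POSTN, 6.75e-08 to 0.243 for TRPC4, 0.0229 to 0.170 for TNC and 0.0294 to 0.0736 for PTPRC. PTPRC lost its call without persister 3, 4 or 5 or withdrawn 2, 4 or 5. Beyond construction (fewer samples or genes, and the spread of persister libraries alone in the fit of 6), the cause of these shifts was not tested.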
